A study of Drosophila melanogaster with 9 samples.

Results

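Wild-type female larvae and male larvae lacking both roX RNAs are 2 states without a complete male-specific lethal (MSL) complex, and they differ in the number of X chromosomes. Their H3K27me3 peak lists were compared here in Drosophila melanogaster. The members were 4 of the 9 samples of the series, chosen by the genotype and sex given in their labels, and the comparison ran over 13922 protein-coding gene bodies and 13387 windows of 10 kb, on chromosome X, the 4 large autosomal arms (2L, 2R, 3L, 3R) and chromosome 4. The knockout males carried the alleles roX1[ex6] and roX2[9-4] (2 libraries), and the females were wild type (2 libraries). All animals were larvae of the third instar raised at 25 °C, and chromatin came from larval tissues that were ground and fixed in 1% formaldehyde. Wild-type males (2 libraries) are given as a description only, and the 3 inputs were not used here. The labels name no tissue beyond the larva, give no wild-type strain and do not say whether the 2 libraries of a group came from separate animals. The spread between them may therefore be technical, and p-values measure that spread only. Sex, X number, the Y chromosome and the roX genotype change together between the groups and cannot be told apart.

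H3K27me3 is the histone mark that Polycomb repressive complex 2 (PRC2) places over silenced genes, and in flies it forms wide domains over developmental regulators such as the Hox genes. In males the MSL complex, which holds MSL proteins and 1 of the 2 roX RNAs, binds the single X and raises its transcription to match the autosomes. Females do not assemble the complex because Sex-lethal blocks translation of msl-2, the limiting subunit. The roX RNAs guide the complex to X, and without them MSL proteins also collect at other sites, including heterochromatin.

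The deposited lists held 6327 and 6189 peaks in the knockout male libraries, against 8896 and 10619 in the female libraries. They carry no read counts, so depth is unknown, and a body without a peak was not detected as marked at that depth. Larval tissues were not separated, so a mark in fewer cells and less mark per cell cannot be told apart. Peaks covered 166 and 167 kb of Y sequence in knockout males and 25.2 and 30.4 kb in females, which goes with the labelled sexes. Peaks over the roX genes did not check the genotype: roX1 (X, 3857230 to 3862697, build dm6) was at 0% in both knockout libraries and at 0% and 7.004% in females, and roX2 was at 0% in all 4. With 2 libraries a group, 0.333 is the smallest two-sided p that exact permutation allows, so for values with 1 number per library the gap between the groups is set beside the widest range within a group.

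The X chromosome of knockout males carried 0.211 times the H3K27me3 coverage of the female X. Peaks covered 2.48% and 1.98% of X in knockout males, against 9.73% and 11.4% in females. The means were 2.23% ± 0.355 in knockout males and 10.5% ± 1.15 in females (SD, n = 2 each), and the gap of 7.25 percentage points compares with at most 1.63 within a group (exact permutation p = 0.333, two-sided). Wild-type males lay between the groups at 6.44% ± 0.293 (SD, n = 2). Among peaks with a −log10 q of at least 3 the means were 4.75% in wild-type males, 4.55% in females and 0.731% in knockout males. There wild-type males did not lie between the groups. The knockout lists also held fewer X peaks, 375 and 350 against 1233 and 1585 in females. No X peak was wider than 20 kb in either knockout library, whereas the female libraries held 14 and 13 and the wild-type male libraries 12 and 13. The widest X peak measured 16.0 and 13.1 kb in knockout males and 48.4 and 43.3 kb in females. In wild-type males it measured 95.7 and 99.0 kb. On the large autosomal arms, peaks over 20 kb numbered 93 and 84 in knockout males and 83 and 75 in females. Wild-type males held 129 and 128 there.

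**Figure D1:**
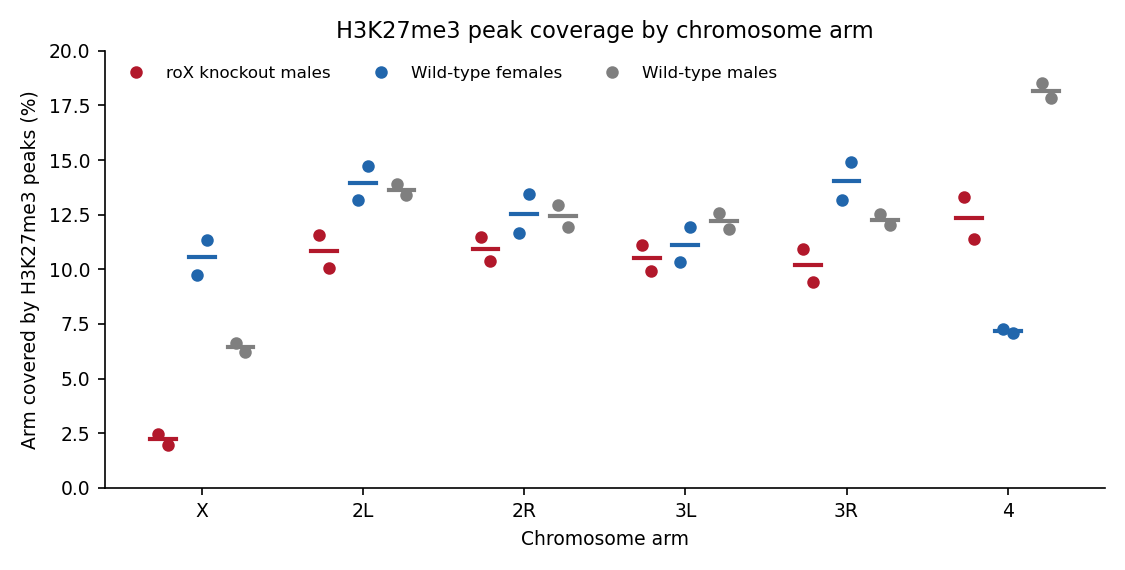
Percent of each chromosome arm under H3K27me3 peaks (vertical axis) for X, 2L, 2R, 3L, 3R and 4 (horizontal axis), for knockout males, females and wild-type males. Each dot is 1 library and each line the mean of 2 libraries. Knockout males lie at 2.48% and 1.98% on X, below both females, and at 13.3% and 11.4% on 4, above both females.

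Comparing X with the large autosomes inside each library removes any change common to all arms. It does not remove a difference confined to X, such as its copy number, whose part in peak detection was not tested. The large arms over X, as a log2 ratio of covered percents, stood at 2.25 ± 0.10 in knockout males and 0.29 ± 0.02 in females (SD, n = 2 each). The difference of 1.96 was 1.91 without the 5 Mb nearest each centromere and 2.01 when all lists were shortened to 1 total length. Where the knockout X was marked, the female X mostly was too. Of the X bases under knockout peaks, 67.7% to 74.2% lay under female peaks across the 4 pairs of libraries. In reverse, 12.5% to 18.2% of the female X bases lay under knockout peaks. This is the same overlap set against the wider female coverage, so it is not separate from the difference in X coverage. Over 2L, 2R, 3L and 3R the shares were 59.4% to 63.5% of knockout bases and 45.8% to 55.4% of female bases. Between the 2 libraries of a group, the shares on X were 54.2% and 68.0% in knockout males and 69.6% and 59.6% in females. Over the large arms they were 66.7% and 75.7% in knockout males and 66.9% and 58.7% in females.

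Among gene bodies, lower coverage in knockout males was also more frequent on X. Of the 13922 genes, 3420 had a mean of at least 5% of the body covered over the 4 libraries and were tested with limma, with Benjamini-Hochberg adjustment over all of them. At an adjusted p under 0.05, 135 genes were lower in knockout males (3.95% of those tested) and 6 were higher (0.175%). X held 46 of the lower genes and none of the higher ones among 405 tested, or 11.4%. The large autosomal arms held 89 lower and 6 higher among 3001, or 2.97% lower. The coverage filter admitted many genes through the female libraries alone, since 345 of the 405 tested on X and 1409 of the 3001 on the large arms had no knockout peak. Without the filter the median difference was 0 on X and on the large arms, and 39 X genes and 83 genes of the large arms were lower. Of the 46 lower X genes, 37 had no peak in either knockout library, and the median coverage of the 46 was 83.1% in females. Bare genes have no spread between the knockout libraries, which favours a call. Most tested X genes were bare too, so the 37 are not a separate result. With knockout replicate 1 or 2 left out no gene passed limma's adjusted threshold, while 365 and 330 genes lay lower at an unadjusted p under 0.05. With female replicate 1 left out 1439 genes were lower and 49 higher, and with female replicate 2 left out 1053 and 61. In fits with 1 female library the knockout pair gave the spread, and the lone library was assumed to vary like it.

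A second rule without a p-value calls a gene marked where at least 50% of its body is covered. By this rule 232 genes (1.67% of 13922) were marked in both female libraries and in neither knockout library, 15 (0.108%) showed the opposite, and 316 were marked in all 4. The first count was 314 and 258 without knockout replicate 1 and 2, and 698 and 471 without female replicate 1 and 2. The second was 40 and 86 without knockout replicate 1 and 2, and 28 without either female library. On X, 62 of the 87 genes marked in both female libraries were unmarked in both knockout libraries, or 71.3%. Over 2L, 2R, 3L and 3R it was 170 of 567, or 30.0%. With lists of equal length the shares were 66.2% and 16.8%, and among peaks with a −log10 q of at least 3, the stricter peaks below, they were 68.9% and 6.51%. No X gene was marked in knockout males only.

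Developmental transcription factor genes of X were mostly marked in females and seldom in knockout males. Of 30 such genes listed, 22 were tested and 5 were lower (gt, bi, Cph, ct and Lim1), with none higher, beside 11.4% lower among all X genes tested. The median difference was −40.2 percentage points over all 30 members, and 0 over all protein-coding genes of X. Of those 2197 X genes 405 were tested, so the 0 describes mostly genes with little coverage. Among tested genes the medians were −58.1 for the list and −23.9 for X, after a filter that female coverage alone could pass. Across the list, 18 were marked in both female libraries and 3 in both knockout libraries, and in 24 of the 30 both knockout libraries lay below both females. Non-overlap of this kind was found in 39.9% of all genes tested and in 55.3% of those on X. No member turned direction with lists of equal length or with the stricter peaks, although 2 and 9 members, with gt and vnd among the 9, then had no difference left.

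The called gene lower by the most bases in knockout males was Cph, which encodes the zinc finger factor Chronophage of the nervous system (X, 7137723 to 7241932). Its 104 kb body was covered over 5.27% and 2.64% in knockout males, against 66.7% and 73.6% in females. The difference was −66.22 percentage points (SE 3.99, limma adjusted p = 0.0344), and it was not past the threshold with lists of equal length. Wild-type males lay at 46.4% and 45.3%. The homeobox gene ct, needed for sense organs and wing margin (X, 7608428 to 7678859), was at 0.897% and 0% in knockout males and at 60.2% and 61.8% in females. Its difference was −60.51 points (SE 2.57, limma adjusted p = 0.0215). With the stricter peaks the differences were −36.34 points at Cph and −23.41 at ct, and neither was past the threshold. At both genes the groups were far apart, and the knockout bodies held almost no peak.

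Among other regulators bi and Lim1 were covered in part in knockout males, and gt was bare. The wing patterning gene bi encodes a T-box factor (X, 4412856 to 4485647), and its body was covered over 34.7% and 30.1% in knockout males, against 92.3% and 86.3% in females (difference −56.92, limma adjusted p = 0.0431). Lim1, a homeobox gene of the LIM class (X, 8756539 to 8805804), had 32.0% and 21.6% in knockout males and 90.8% and 88.8% in females (difference −63.02, adjusted p = 0.0462, limma). The gap gene gt (X, 2427113 to 2428967) had no peak in knockout males and stood at 95.6% and 100% in females (difference −97.79, adjusted p = 0.0143, limma). With the stricter peaks the difference at bi was −86.53 points. The call at bi was lost without female replicate 1, where the difference was −53.89 points, and that at Lim1 without either female library, at −62.00 and −64.04 points. In all 3 genes the groups stood apart.

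Several other X regulators differed widely without passing the threshold. The homeobox gene B-H1, which acts in eye and leg, was at 37.7% and 17.2% in knockout males and 100% in both females (limma adjusted p = 0.0789), and its pair B-H2 at 23.4% and 0% in knockout males, against 74.3% and 91.1% in females (adjusted p = 0.118). The zinc finger gene disco-r was at 24.6% and 10.4% in knockout males and 84.8% and 82.9% in females (limma adjusted p = 0.0586). The buttonhead-related gene Sp1 had 21.3% and 2.20% in knockout males and 86.7% and 81.1% in females. The Runx gene lz, which acts in eye and blood cells, had 31.7% and 15.6% in knockout males and 83.2% and 82.9% in females. The head gene oc was at 45.2% and 56.6% in knockout males and 87.9% and 87.6% in females. The neural gene vnd was nearly bare, at 1.87% and 0% in knockout males against 58.0% and 71.7% in females (limma adjusted p = 0.0586). None of these 7 genes had overlapping groups. Knockout libraries lay below both females in 24 of the 30 listed genes too, and in 55.3% of X genes tested.

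**Figure D2:**
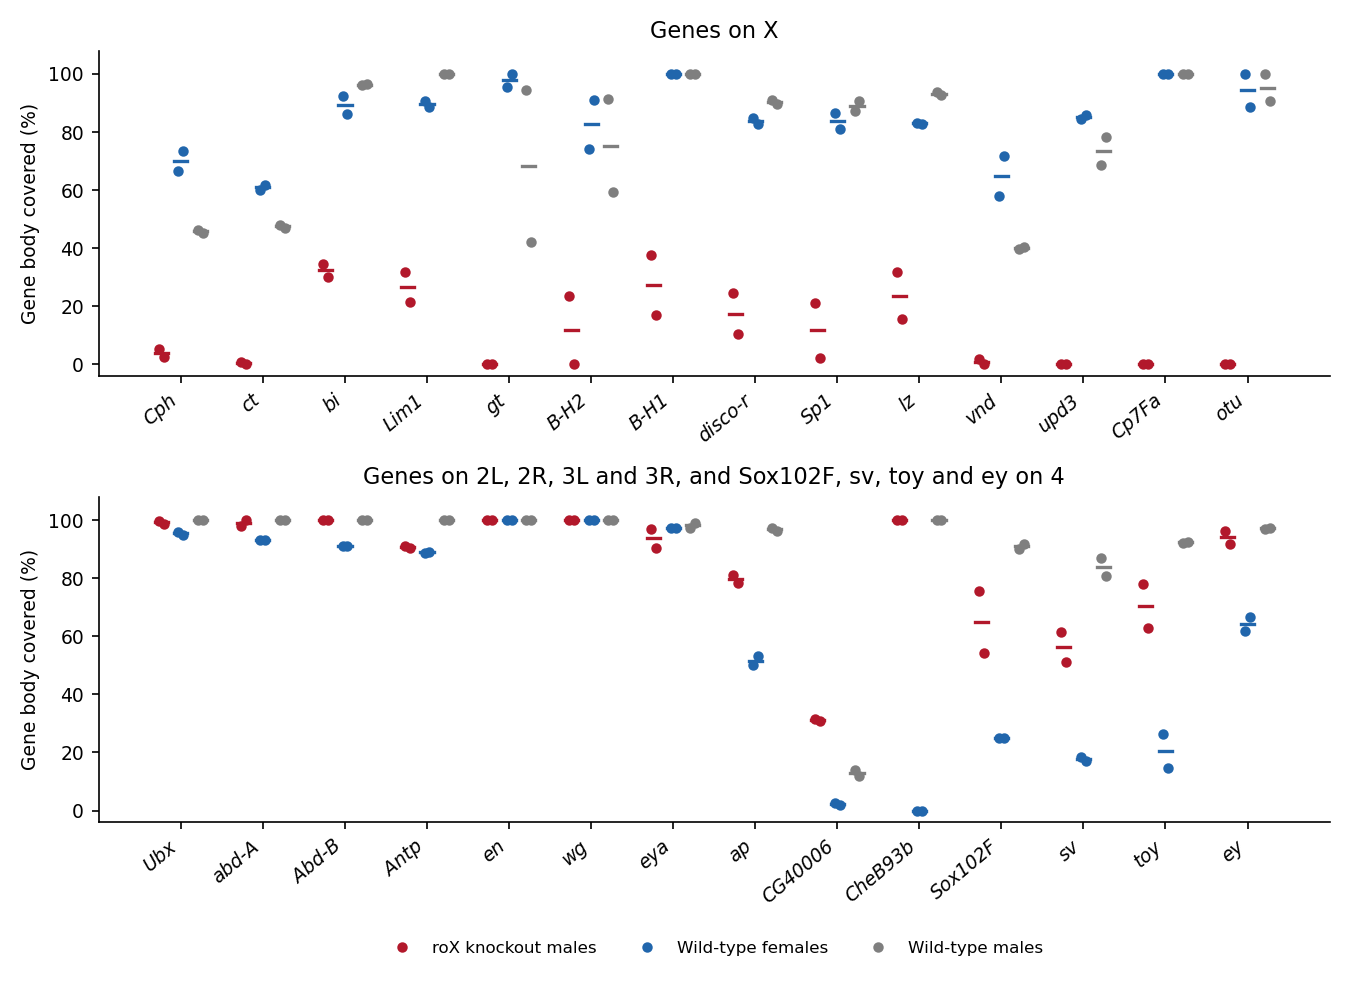
Percent of the gene body under H3K27me3 peaks (vertical axis) for 28 genes (horizontal axis), with 1 dot per library and a line at the mean of 2. In the upper panel the X genes of knockout males lie between 0% and 37.7%, below both females. In the lower panel the groups lie within 10 points of each other for the Hox genes, en, wg and eya, while ap, CG40006, CheB93b and the 4 genes of chromosome 4 lie higher in knockout males.

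The ligands of the JAK/STAT pathway are encoded by upd1, upd2 and upd3, which lie near one another on X. They differed from one another in their coverage in knockout males. upd3 (X, 18277233 to 18284596) had no peak in either knockout library and was covered over 84.4% and 85.7% in females (difference −85.05, limma adjusted p = 0.0135). upd1 (X, 18305354 to 18309291) was at 53.0% and 52.1% in knockout males, against 100% in both females (difference −47.45, adjusted p = 0.028, limma). upd2 was at 65.7% and 0% in knockout males and 80.8% and 80.4% in females, so its knockout libraries disagreed (limma adjusted p = 0.445). Of the 22 ligand genes listed, 15 were tested and 2, upd3 and upd1, were lower, against 3.95% of all genes tested. The BMP ligand gene dpp on 2L was marked in females only, at 48.0% and 39.3% in knockout males against 70.4% and 65.2% in females (limma adjusted p = 0.141), and its difference was positive, 11.2 points, among the stricter peaks.

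In the chorion gene cluster of X, whose genes encode eggshell proteins, 5 listed genes were marked in females and 4 of them were bare in both knockout libraries. Cp7Fa (X, 8470888 to 8473087) and Cp7Fc were at 0% in both knockout libraries and at 100% in both females (limma adjusted p = 0.00901 for each). Cp7Fb was at 0% and 0% in knockout males and at 88.9% and 90.6% in females, and Cp36 at 0% and 0% in knockout males, against 85.6% and 87.6% in females. The fifth gene, Cp38, was at 48.4% and 0% in knockout males and 100% in both females (limma adjusted p = 0.205). The germline deubiquitinase gene otu, next to the cluster (X, 8485008 to 8489535), had no knockout peak and stood at 100% and 88.8% in females (limma adjusted p = 0.0325). CG33223 spans these chorion genes and was at 3.92% and 0% in knockout males, against 69.7% and 68.6% in females (not past the threshold without female replicate 1, at −66.61 points), so it does not count separately. Wild-type males were marked here too, at 100% in both libraries for Cp7Fa. Of the 20 ovary genes listed, 14 were tested and 5 were lower, where 3.95% of all tested genes and 11.4% of those on X were lower; 4 lay in this cluster, beside one another, and the other was Cp19 of the chorion cluster on 3L, with no knockout peak and 100% in both females (limma adjusted p = 0.00901). Cp19 had no peak in wild-type male replicate 1.

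The remaining X genes named by rank, chosen by the difference in bases, were of mixed function. Bx, a LIM-only cofactor gene of the wing (X, 18515428 to 18572809), lacked a peak in knockout males and stood at 41.0% and 43.4% in females (difference −42.21, limma adjusted p = 0.0354). Bx was also low in wild-type males, at 5.11% and 1.04%. CG32719 was at 0% in both knockout libraries against 47.5% and 40.8% in females, and was no longer past the threshold with lists of equal length. spdi, which overlaps vnd, was at 0.854% and 0% in knockout males and 38.4% and 39.7% in females. CG32532 was at 6.62% and 0% in knockout males and 68.2% and 78.3% in females. The proline oxidase gene slgA was at 0% in both knockout libraries, against 82.5% and 78.0% in females. All 5 genes had separate groups. With the stricter peaks no difference was left at Bx, CG32719, spdi and slgA, and CG32532 differed by −26.29 points. The calls at Bx, CG32719 and CG32532 were lost with gaps of up to 1 kb joined, and that at CG32532 also without either female library, at −75.04 and −64.90 points.

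Windows of 10 kb do not depend on gene models. Of 5385 windows tested with limma, 395 were lower in knockout males (7.34%) and 214 higher (3.97%). X held 183 lower and 3 higher windows among 657, or 27.9% lower. The lower X windows fell into 95 runs of adjacent windows, of which 61 were single windows, while 13 runs of at least 4 windows held 76 of the 183. The longest X run measured 120 kb, and no lower run on the other arms exceeded 20 kb. Without knockout replicate 1 or 2 no window passed, while 770 and 649 lay lower and 528 and 593 higher at an unadjusted p under 0.05 in limma. Without female replicate 1, 1148 windows were lower, and without female replicate 2, 746.

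The longest run held B-H2 and B-H1 (X, 17300001 to 17420000), where 6.36% and 2.98% was covered in knockout males, against 88.1% and 88.9% in females. The next overlapped bi (X, 4450001 to 4530000), with 11.2% and 11.1% in knockout males and 89.6% and 86.7% in females. Another of 80 kb was at disco-r (X, 16130001 to 16210000), with 9.28% and 10.3% in knockout males and 76.3% and 78.5% in females. In all 3 runs wild-type males lay close to females, at 83.7% and 86.8%, 85.2% and 86.3%, and 79.6% and 78.6%. Over all 183 lower X windows they did not, with a median of 31.3% in wild-type males against 55.4% in females. These windows were called for female coverage above knockout coverage, which favours a high female median but not a high wild-type male one. Of the 183, 65 had no peak in either wild-type male library.

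Stretches of at least 10 kb covered in both female libraries give a view by domain; this set was picked with the values already known. X held 40 of them and 2L, 2R, 3L and 3R together 175. Knockout males covered a median of 29.7% and 17.9% of an X domain, and 33 of the 40 had a mean under 50%. Of an autosomal domain they covered 99.9% and 96.1%, and 3 of 175 had a mean under 50%. Wild-type males covered 99.7% of an X domain in both libraries by the median, and none of the 40 lay under 50%. In reverse, knockout males shared 2 domains of this length on X, at the Stellate repeats and at Muc14A, and both were covered in females. Of 159 such knockout domains on the large arms, 11 had a female mean under 50%, 10 of them among the 21 in the 5 Mb nearest a centromere. On chromosome 4 it was 3 of 4.

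**Figure D3:**
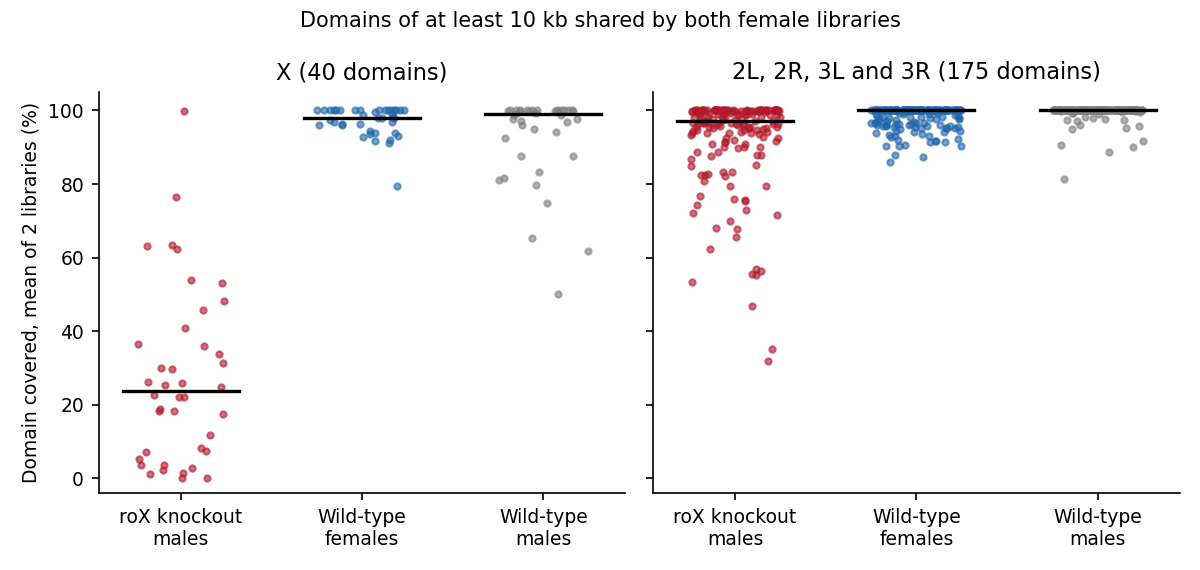
Percent covered (vertical axis, mean of 2 libraries) of each domain of at least 10 kb shared by both female libraries, for X (left) and 2L, 2R, 3L and 3R (right), in knockout males, females and wild-type males. Each dot is 1 domain and the black line the median. In knockout males 33 of the 40 X domains lie under 50%, against 3 of the 175 autosomal ones.

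On X, 17 genes were marked in both knockout libraries. Of these, 11 belong to the Stellate repeats, near-identical copies that share reads, so their coverage is uncertain. Among the others the head gene btd was at 85.4% and 68.6% in knockout males against 100% in both females, and the homeobox gene unc-4 at 82.4% and 56.0% in knockout males against 90.6% and 91.1% in females (limma adjusted p = 0.258 and 0.445). Only upd1, above, passed the test. In the 2 Mb of X nearest the centromere, knockout males had 6.78% and 7.0% of window length covered and females 4.57% and 6.88%, the groups overlapping. In the next 2 Mb, coverage was 0.275% and 0.106% in knockout males and 5.47% and 8.28% in females.

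The difference over the large autosomal arms together was small, and its direction depended on scaling. Coverage was 10.6% ± 0.945 in knockout males and 12.9% ± 1.19 in females (SD, n = 2 each), and the gap of 0.828 points between the groups, which did not overlap, was smaller than the 1.68 points within a group. With lists of equal length the order turned, 9.89% in knockout males and 8.79% in females. That setting fixes the total over all arms, X included, so fewer bases on X leave more on the others. The turn is therefore not separate from the difference on X. Arm by arm, knockout males and females stood at 10.8% and 13.9% on 2L, 10.9% and 12.5% on 2R, and 10.2% and 14.0% on 3R. On 3L the groups overlapped, at 10.5% in knockout males and 11.1% in females. Along the arms, differences ran in opposite directions.

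In the 5 Mb nearest the centromere, a strip chosen after the data were seen, knockout males had more of the large arms covered than females. The values were 16.0% and 15.9% in knockout males, against 7.17% and 8.60% in females, a ratio of 2.02 (exact permutation p = 0.333, two-sided). With lists of equal length the means were 15.03% in knockout males and 5.34% in females, and with the stricter peaks 3.65% and 2.08%. The difference was widest on 3L, at 23.3% and 23.6% in knockout males against 5.37% and 7.35% in females. On 2R the values were 16.8% and 17.5% in knockout males and 5.09% and 6.12% in females. On 3R they were 7.41% and 7.61% in knockout males and 3.96% and 5.18% in females. On 2L the groups overlapped, at 16.5% and 15.01% in knockout males and 14.3% and 15.8% in females. Wild-type males had 16.9% ± 1.90 of this strip covered (SD, n = 2), near the knockout value.

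**Figure D4:**
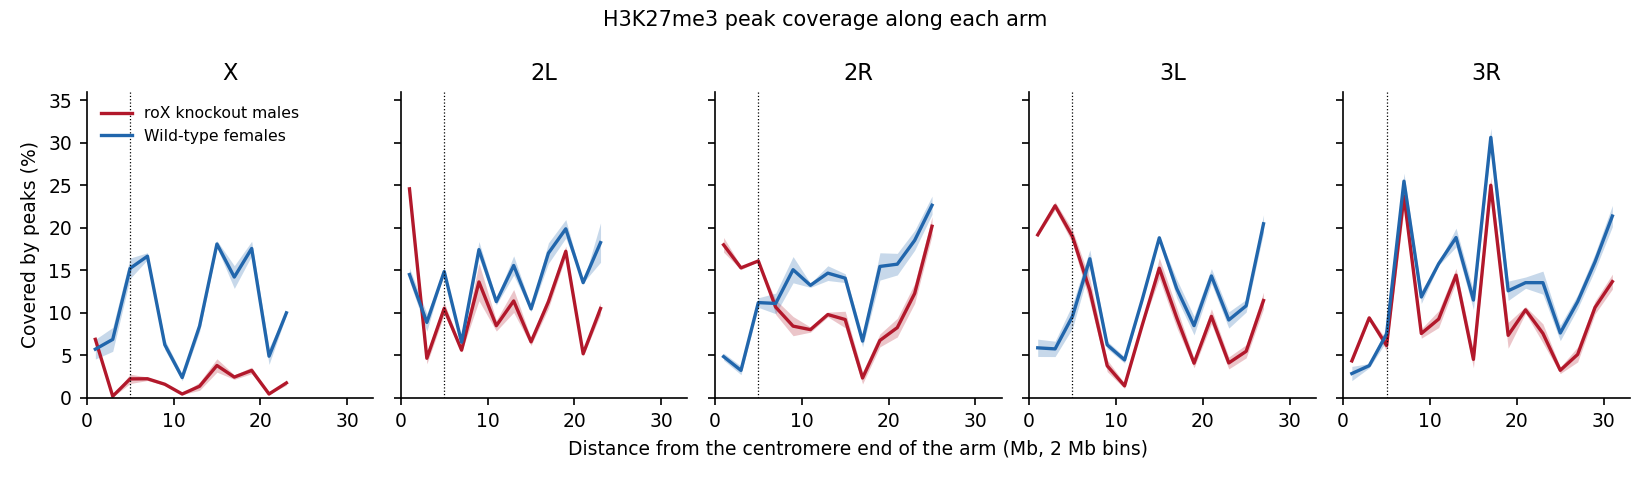
Percent of 10 kb windows under H3K27me3 peaks (vertical axis, mean over 2 Mb bins) by distance from the centromere end of each arm in Mb (horizontal axis). Lines are means of 2 libraries, shaded bands span both libraries, and the dotted line marks 5 Mb. Knockout males lie above females in the first 2 bins of 2R, 3L and 3R, the first of 2L, and the bin of 4 to 6 Mb on 2R and 3L. Farther out they lie mostly below females, and on X they lie below females beyond the first bin.

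Over the rest of these arms the order was the other way. Coverage outside the strip was 10.2% and 8.56% in knockout males and 13.2% and 14.9% in females, a ratio of 0.667. With lists of equal length the means were 8.73% in knockout males and 9.57% in females, and with the stricter peaks 4.70% and 5.01%, where the groups overlapped. Windows tested by limma divided accordingly. Within the strip 166 of 1014 were higher in knockout males and 11 lower, whereas outside it 37 of 3669 were higher and 201 lower.

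The longest higher run held CG44102 and the ionotropic receptor gene Ir41a (2R, 4900001 to 4950000), with 29.9% and 31.2% covered in knockout males and 3.19% and 4.01% in females. A run without a protein-coding gene (2R, 250001 to 290000) was covered over 91.5% and 100% in knockout males and 5.60% and 13.3% in females, and over 98.3% and 100% in wild-type males. Next came 5 runs of 30 kb, of which those at nAChRalpha4, an acetylcholine receptor subunit gene, and AGO3, a piRNA pathway Argonaute gene, lay on 3L, and 1 on 4 overlapped fuss and toy. AGO3's run (3L, 23590001 to 23620000) was at 54.7% and 65.0% in knockout males and 2.12% and 3.68% in females. The called gene higher by the most bases in knockout males was CG40006 in the strip of 2L (2L, 22622417 to 22756349). It was at 31.4% and 30.9% in knockout males and 2.70% and 1.85% in females (difference 28.88, limma adjusted p = 0.0498). It was not past the threshold with lists of equal length. Its difference among the stricter peaks was 0.649 points, and its coverage was too low for a test.

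Chromosome 4, the small and largely heterochromatic autosome, was covered over 13.3% and 11.4% in knockout males, against 7.28% and 7.1% in females. The ratio was 1.72 and the gap of 4.09 points exceeded the 1.94 points within a group (exact permutation p = 0.333, two-sided). Among the stricter peaks the gap, 1.03 points, was smaller than the range of 2.75 within a group. Wild-type males were higher still at 18.2% ± 0.496 (SD, n = 2). None of the 14 genes tested on 4 passed limma, but in 8 both knockout libraries lay above both females, against 4.82% of all tested genes. Of the 15 genes marked in knockout males only, 3 lay on 4, all developmental regulators. The Pax6 gene toy (4, 989725 to 1007922) was at 77.9% and 63.0% in knockout males and 26.4% and 14.8% in females (limma adjusted p = 0.113). The Pax2 gene sv (4, 1088798 to 1113317) was at 61.6% and 51.0% in knockout males and 18.4% and 17.1% in females (limma adjusted p = 0.0845). Sox102F, a Sox factor gene (4, 800436 to 834393), was at 75.6% and 54.1% in knockout males and 25.0% and 25.1% in females (limma adjusted p = 0.172). The second Pax6 gene, ey, was marked in all 4 libraries, at 96.4% and 91.7% in knockout males and 61.7% and 66.7% in females (limma adjusted p = 0.0803). The homeodomain gene zfh2 had 45.0% and 41.0% in knockout males and 26.6% and 25.7% in females. With the stricter peaks the differences were 57.47 points at toy, 15.53 at Sox102F and 6.13 at sv. The groups were separate in all 5 genes. At toy, sv and Sox102F this follows from the rule that called them marked in knockout males only, so it is not a separate result. The separation at ey and zfh2 was not set by that rule. Wild-type males lay above the females in each of the 5 genes. Of 134 windows on 4, 45 were tested, 8 were higher and none lower, where 3.97% of all tested windows were higher. With lists of equal length 4 were higher and none lower, and with the stricter peaks 2 were higher and 1 lower.

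The classical Polycomb targets of the autosomes were marked in both groups. Each of the 8 Hox genes was marked in every library, and none passed limma. Ubx was covered over 99.8% and 98.7% in knockout males and 96.0% and 95.0% in females, and Abd-B over 100% in both knockout libraries, against 91.2% and 91.1% in females (limma adjusted p = 0.445 and 0.207). The segment polarity genes en and wg, which encode a homeodomain factor and a Wnt ligand, were at 100% in all 4 libraries. Among 21 T-box, GATA, NK and Iroquois genes, 20 were marked in both knockout libraries and 19 in both female libraries, and none passed. Among 24 segmentation genes 17 were marked in both knockout libraries and 19 in both female libraries, and gt on X was the 1 that was lower. Among 26 eye and appendage genes 17 were marked in both knockout libraries and 21 in both female libraries, and none passed. In that list the apterous selector gene ap of the dorsal wing was at 81.1% and 78.3% in knockout males and 50.1% and 53.2% in females (limma adjusted p = 0.0639), and it lay in a higher run of windows (2R, 5710001 to 5740000). The homeodomain cofactor gene hth was at 40.4% and 32.8% in knockout males and 60.6% and 58.9% in females (limma adjusted p = 0.119). Directions within these lists depended on the setting: among the stricter peaks 2 Hox, 4 segmentation, 2 T-box to Iroquois and 1 eye and appendage gene turned direction.

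The 89 lower genes of the large autosomal arms were shorter than those on X, and the female peaks over them were weaker. Their median length was 1.38 kb, against 1.90 kb for the lower X genes and 2.21 kb for all genes tested. No peak lay over 76 of the 89 in either knockout library, a state without spread that favours a call. The best female peak over a lower autosomal gene stood at a median percentile of 59.8 and 60.1 within its own list, by the authors' −log10 q. For the lower X genes it stood at 86.1 and 89.4. In wild-type males 53 of the 89 had no peak in either library, against 12 of the 46 on X. The called autosomal gene lower by the most bases was Eglp2, which encodes a membrane channel of the aquaporin family (2R, 23603722 to 23616754). It was at 9.07% and 13.5% in knockout males and 71.5% and 64.3% in females (limma adjusted p = 0.0443). It was not past the threshold with lists of equal length, with gaps joined or without female replicate 1, where its difference was −53.03 points. Among the stricter peaks neither Eglp2 nor Mal-A1, nor Cp19 above, had a difference left. The maltase gene Mal-A1 (2R, 8449664 to 8451904) had no knockout peak and stood at 79.96% and 83.76% in females (limma adjusted p = 0.0173), and at 0% in wild-type males.

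The other 5 autosomal genes that were higher had short bodies, 2 of them beside developmental genes marked in all 4 libraries. CheB93b, a chemosensory protein gene beside lbl of the NK cluster (3R, 21409123 to 21409924), was at 100% in both knockout libraries and 0% in both females (difference 100, limma adjusted p = 0.00901), while lbl itself was fully covered in knockout males and covered over 98.3% and 98.1% in females. CG10317, beside the antennal selector gene ss (3R, 16368855 to 16370533), was at 100% in both knockout libraries, against 31.1% and 33.1% in females (adjusted p = 0.0187, limma). CG32079 on 3L was at 100% in both knockout libraries, against 36.004% and 41.8% in females. With gaps of up to 1 kb joined the difference at CG32079 was 32.00 points, against 61.12 without, and was not past the threshold. All 3 bodies were at 100% in both wild-type male libraries. CG7304 was at 51.9% and 53.2% in knockout males and 0% in both females, and CG15873 at 80.5% and 82.6% in knockout males and 0% in both females. With the stricter peaks no difference was left at CG10317, CG7304 and CG15873. CG15873 was bare in wild-type males as well, and it was no longer past the threshold with lists of equal length. By the 50% rule alone, Alp2, an alkaline phosphatase gene, was at 96.8% and 95.2% in knockout males and 0% and 40.9% in females. CG3222 had 89.7% and 65.1% in knockout males and 0% and 48.4% in females, and robl37BC, a dynein light chain gene, 100% and 74.1% in knockout males and 0% and 31.0% in females. At Alp2, CG3222 and robl37BC too, no difference was left with the stricter peaks.

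The other lists held few calls. Of 11 gut genes tested Mal-A1 was the 1 lower, and of 3 sex determination genes tested otu was the 1 lower, beside 3.95% of all genes tested. No tested member passed among 18 neural fate, 11 testis, 9 X-linked and 10 autosomal chemosensory receptor, 7 glue, 6 fat body, 6 neuronal, 4 muscle, 4 Polycomb group and 4 antimicrobial peptide genes. No ribosomal protein gene (22), MSL complex gene (6) or X-linked housekeeping gene (14) reached the coverage needed for a test.

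The balance of called windows outside X moved with the scaling, while on X lower windows outnumbered higher ones under each. With lists of equal length 141 X windows were lower and 7 higher, and on the large autosomal arms 64 were lower and 286 higher. Because the total over all arms is then fixed, these autosomal counts are tied to the lower X coverage. Among peaks with a −log10 q of at least 3 the X counts were 88 lower and 3 higher, and the autosomal counts 34 lower and 96 higher. The share of lower among all called windows was 64.9% with all peaks, 40.8% with lists of equal length and 54.9% with the stricter peaks. For genes it was 95.7%, 81.6% and 68.0%.

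**Figure D5:**
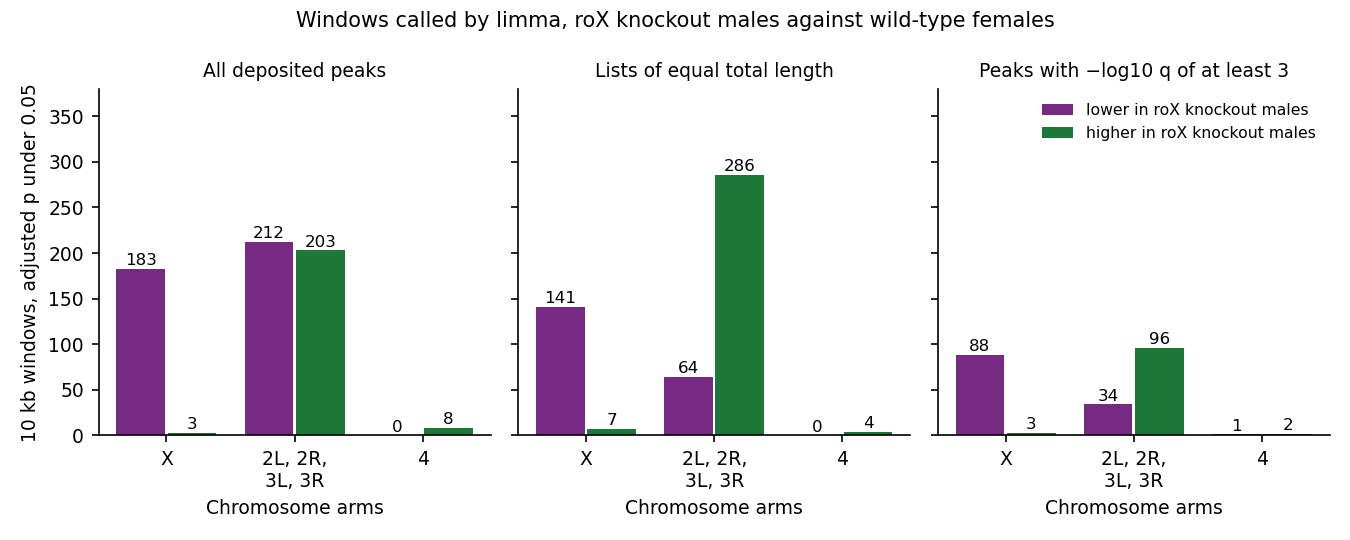
Number of 10 kb windows past an adjusted p of 0.05 (vertical axis) by chromosome group (horizontal axis) and direction, with all peaks, with lists of equal total length and with peaks of −log10 q of at least 3. On X 183, 141 and 88 windows are lower in knockout males and 3, 7 and 3 higher, whereas on the large arms the order of the 2 counts turns with the setting.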

How the data were processed

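The authors deposited 1 broad peak list per H3K27me3 library, called on each library separately. Per the submitters' processing notes, Trimmomatic 0.39, Bowtie2 2.4.5, SAMtools 1.13, Picard, deepTools 3.5.1 and build dm6 were used; no source used here names the peak caller or says how inputs were used. Each deposited list gives a display score, a fold enrichment (ratio) and −log10 p and q per peak, all the authors' own values, used only to filter or rank peaks within a list. Peaks were merged per list, and covered percents of 13922 Release 6 protein-coding gene bodies and of 10 kb windows were computed. Features with a mean of at least 5% over the 4 libraries were fitted with limma 3.58.1 (R 4.3.3; knockout males minus females, Benjamini-Hochberg adjusted) and checked on simulated data. Shared replicate numbers did not pair libraries. A 5 Mb strip at each centromere and domains of at least 10 kb were added after the data were seen. Single values were compared with exact permutation tests. Alternatives were −log10 q of at least 3, fold of at least 1.5, 1 kb gaps joined, lists shortened to equal length, other filters, window sizes, scales and marks, and each library left out. The members and gene lists were chosen with earlier results of these data known. Named genes are list members and, per direction, the 12 called genes with the most bases changed, at least 10 kb apart (filled from the 50% rule where fewer passed limma), plus the first 6 on X and 3 on 4; 1 gene is not reported here. Reference sequences were not used.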

Additional observations from a re-analysis of the deposited data

Results flagged for a closer look

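Sequences outside the 6 arms and Y, which no comparison used, also carried peaks. Knockout males had 437 and 461 kb covered there (mean 449 kb ± 17.0, SD, n = 2), against 183 and 238 kb in females and 399 and 284 kb in wild-type males. This signal was above the level in the female libraries and was noted because it lies in data outside the main measurement. The part played by the Y chromosome and by repeats was not tested.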

How the results depend on the processing

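Under the 8 planned settings and without the 5 Mb strip, X coverage stayed lower in knockout males, the autosome to X ratio higher and, under the 8, chromosome 4 coverage higher. Large-arm coverage reversed to a difference of 1.095 points with lists of equal length, whose fixed total ties it to X, and 0.0372 with −log10 q of at least 3. Lower and higher genes were 80 and 18 with equal lists, 51 and 24 with the stricter q, 438 and 36 with all 6 libraries in the fit, 346 and 23 on an arcsine scale; higher genes alone moved to 10 with gaps joined, 16 without the coverage filter and 15 with a 20% filter. Lower windows were 205 with equal lists and 207 with a 20% filter; lower and higher were 123 and 101 with the stricter q, 891 and 402 with 6 libraries, 811 and 357 on the arcsine scale, 595 and 338 in 5 kb windows. With 1 library left out, lower genes ran from 0 to 1439, higher genes from 0 to 61, lower windows from 0 to 1148 and higher windows from 0 to 213. Leaving out a knockout library or using the replicate block (same-numbered correlation 0.0308 for genes, 0.0189 for windows) gave 0 genes and 0 windows, with 404 and 27 genes and 883 and 464 windows at an unadjusted p under 0.05 under the block; limma on all 4 libraries without the block had 688 and 63 genes. Without knockout replicate 1 or 2 the unadjusted gene counts were 365 and 77, and 330 and 140. Genes marked in females only were 45 with the stricter q, 119 with equal lists, 504 at a 20% mark and 98 at 80%, and from 258 to 698 with 1 library left out. Genes marked in knockout males only were 7 with the stricter q and 26 at 20%, and from 28 to 86 with 1 left out. The cause of these moves was not tested. Of the 24 genes named by rank none reversed; 5 lost the threshold with equal lists, 5 with gaps joined, 7 without the coverage filter and 18 under the block or without either knockout library. With the stricter q, 12 of the 24 could not be fitted, 11 of these with no difference left, and Cph and ct lost the threshold. Depth is unknown, so weak peaks may be missed in any library.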
